A study of Homo sapiens with 24 samples.

Results

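Expression of 10 genes of the nuclear lamina and of chromatin that are widely used to read out senescence was followed in SKBR3 cells: the lamins LMNA, LMNB1, and LMNB2, the lamin B receptor LBR, the high-mobility-group genes HMGB1, HMGB2, and HMGA1, and the chromatin regulators EZH2, DNMT1, and UHRF1. They were taken by gene symbol from the deposited read-count table, and all 10 of the 10 sought were found among its 14493 genes. SKBR3 is an established human breast cancer cell line with amplified HER2. RNA-seq was done on 24 libraries, 3 replicates in each of 8 groups, to compare therapy-induced senescence (TIS) caused by inhibitors of fatty acid synthesis (FASTIS) with TIS caused by other drugs. The FASTIS groups received ND-646, an inhibitor of acetyl-CoA carboxylase (ACC), or TVB-3166, an inhibitor of fatty acid synthase (FASN), each at 250 nmol/L. The other TIS groups received bleomycin at 10 μmol/L, which breaks DNA, doxorubicin at 10 nmol/L, a topoisomerase II poison, alisertib at 500 nmol/L, an Aurora kinase A inhibitor, or palbociclib at 1 μmol/L, a CDK4/6 inhibitor. Drug was renewed on day 3, and the cells were collected on day 7. Untreated cells were collected on day 0 and on day 7. The labels give a refeed on day 3 for the drug groups and name none for untreated day-7 cells. Every group came from the same line, and each drug was given at 1 dose, so differences between drugs are differences between these doses.

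Lamins are the intermediate filaments that line the inner nuclear membrane. The B-type lamins and LBR hold heterochromatin at the nuclear edge, and loss of lamin B1 is a common mark of senescent cells. HMGB1 and HMGB2 bend DNA, and HMGA1 binds AT-rich DNA and is known as a component of the heterochromatin foci of senescent fibroblasts. EZH2 is the methyltransferase of polycomb repressive complex 2 (PRC2), while UHRF1 recognises newly replicated DNA and recruits DNMT1, the maintenance DNA methyltransferase, to it.

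The 24 libraries held 29405121 to 44316330 counts in genes. Level was expressed as CPM, the counts of a gene relative to the effective size of its library after TMM normalization. ND-646 replicate 1 stood apart, with a TMM factor of 0.785 against 0.896 to 1.08 in the other libraries, and results that changed without it are given with and without it. The SKBR3 markers ERBB2, GRB7, EPCAM, KRT8, KRT18, and KRT19 were all expressed, at a summed level of 9940 to 20050 CPM. Of 8 markers of fibroblasts, endothelium, and immune cells, 5 were not among the genes of the table. The summed level of the other 3 was 17.7 to 19.4 CPM in day-0 cells, 50.2 to 64.2 CPM in ND-646, 43.6 to 66.7 CPM in bleomycin, and 35.7 to 41.5 CPM in TVB-3166 cells. COL1A1 made up most of this sum on day 0, and CD68, which encodes a lysosomal membrane protein, made up most of it in those 3 drugs. Its part in the results was not tested.

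Promoter sequence is shown for LMNB1, EZH2, and UHRF1, the members with the largest mean fall over the 6 drugs, to set their sequence beside their levels, and was searched for short words known from cell-cycle promoters. Each is the 250 bases before the transcription start, written 5′ to 3′ on the strand of the gene, from RefSeq on GRCh38.p14. Capitals mark CCAAT words, which read ATTGG on the opposite strand, and E2F-type words on either strand, which are TTGGCGC with its variants TTCCCGC, also TTGCCGC, or else TTCGCGC.
LMNB1, chr5:126776886-126777135, plus strand: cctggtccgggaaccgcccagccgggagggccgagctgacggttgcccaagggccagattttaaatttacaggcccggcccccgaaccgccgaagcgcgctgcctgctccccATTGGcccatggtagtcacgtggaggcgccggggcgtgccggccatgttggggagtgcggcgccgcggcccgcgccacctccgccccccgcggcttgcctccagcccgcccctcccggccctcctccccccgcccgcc
EZH2, chr7:148884292-148884541, minus strand: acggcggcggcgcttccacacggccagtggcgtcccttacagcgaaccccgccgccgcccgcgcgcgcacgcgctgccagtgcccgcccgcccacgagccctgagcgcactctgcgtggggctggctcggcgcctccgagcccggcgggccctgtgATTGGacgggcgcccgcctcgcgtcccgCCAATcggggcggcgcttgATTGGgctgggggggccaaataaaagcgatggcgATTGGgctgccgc
UHRF1, chr19:4909251-4909500, plus strand: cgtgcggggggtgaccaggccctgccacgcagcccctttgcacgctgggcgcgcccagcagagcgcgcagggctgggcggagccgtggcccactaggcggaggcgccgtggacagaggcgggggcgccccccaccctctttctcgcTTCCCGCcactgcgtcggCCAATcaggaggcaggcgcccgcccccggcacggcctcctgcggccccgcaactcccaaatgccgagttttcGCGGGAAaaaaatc
EZH2 carried 4 CCAAT words, LMNB1 carried 1, and UHRF1 carried 1 CCAAT word and 2 E2F-type words. The words did not overlap. Of the 10 genes, 9 matched a window in the RefSeq table, and the window of 7 lay at the start of the reference transcript (LMNB1, LMNB2, HMGB1, HMGA1, EZH2, DNMT1, and UHRF1). HMGB1 carried 3 CCAAT words, LMNB2 carried 1 CHR word (TTTGAA, either strand), and neither HMGA1 nor DNMT1 carried any of the words in this window. Among 35116 windows of the same length, 32% held a CCAAT word, 10.9% an E2F-type word, and 13.3% a CHR word. These matches describe letters only, and a window without them says nothing of the factors that bind there.

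Of the 6 drugs, 5 lowered at least 8 of the 10 genes against either untreated group, alisertib lowered 7 against day 0 and 4 against untreated day 7, and no member was called higher in any drug. A gene was called when the Benjamini-Hochberg adjusted p-value of the quasi-likelihood test in edgeR was under 0.05, and each drug was first compared with untreated day-0 cells. ND-646, TVB-3166, bleomycin, and doxorubicin each lowered 9 of the 10 genes, palbociclib lowered all 10, and alisertib lowered 7, a number that was 4 with all 24 libraries in one fit and 5 to 8 when 1 library was left out. Among all genes tested, the share called lower was 18.8% in ND-646, 27.7% in TVB-3166, 25.3% in bleomycin, 27.2% in palbociclib, 19.6% in alisertib, and 24.8% in doxorubicin cells. The share called higher was 19.1%, 27.4%, 24.1%, 26%, 17.7%, and 23.7%, respectively, with 0 members higher in each. The median log2 fold-change of the 10 genes was -1.78 in ND-646, -1.28 in bleomycin, -1.25 in TVB-3166, -1.01 in palbociclib, -0.64 in doxorubicin, and -0.42 in alisertib cells, while that of all genes tested lay between -0.008 and 0.018 in these comparisons. A fall of at least 2-fold was called for 8 members in ND-646 and in bleomycin, 7 in TVB-3166, 5 in palbociclib, and 0 in doxorubicin and alisertib cells. In bulk RNA, a lower level in every cell and a smaller share of cells with a high level cannot be told apart. The comparisons shared the 3 day-0 libraries, and nothing in the labels says that replicates came from separate cultures, so the p-values measure the spread between these libraries.

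LMNB1 encodes lamin B1 (gene ID 4001, GRCh37 chromosome 5, 126112315 to 126172712), and its fall was the largest or second-largest among the members in every drug except alisertib. Untreated cells held 80.0, 86.9, and 95.6 CPM on day 0 and 80.0, 66.5, and 79.9 CPM on day 7. ND-646 libraries held 15.6, 14.3, and 16.3 CPM, bleomycin libraries 21.5, 10.5, and 19.9 CPM, palbociclib libraries 23.7, 15.1, and 19.1 CPM, and TVB-3166 libraries 32.0, 24.2, and 25.3 CPM. Levels were higher in doxorubicin (39.9, 46.6, and 44.1 CPM) and alisertib (56.7, 50.2, and 57.3 CPM) cells. No drug library reached the lowest untreated library of day 0 or of day 7. The log2 fold-change from day 0 was -2.52 ± 0.15 (SE, n = 3 per group) in ND-646, -2.34 ± 0.23 in bleomycin, -2.18 ± 0.16 in palbociclib, -1.68 ± 0.12 in TVB-3166, -0.996 ± 0.10 in doxorubicin, and -0.68 ± 0.10 in alisertib cells. The adjusted p-values ran from 1.77e-06 in TVB-3166 to 0.00077 in alisertib cells. ND-646 cells thus kept 0.175 and bleomycin cells 0.198 of the day-0 level. The share of all genes tested with a lower log2 fold-change than LMNB1 was 0.458% in bleomycin, 0.626% in palbociclib, and 1.51% in ND-646 cells. It was 1.70% in TVB-3166, 3.01% in doxorubicin, and 5.07% in alisertib cells.

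LMNB2 encodes lamin B2, the other B-type lamin (gene ID 84823, GRCh37 chromosome 19, 2427636 to 2456957, minus strand). Its level was 95.5, 108, and 101 CPM on day 0, and 22.1, 36.4, and 35.7 CPM in ND-646, 33.3, 38.7, and 43.97 CPM in TVB-3166, and 46.2, 30.5, and 46.3 CPM in bleomycin cells. Palbociclib cells held more, at 62.1, 56.6, and 56.9 CPM. All drug libraries lay below all day-0 libraries. The log2 fold-change was -1.70 ± 0.21 in ND-646, -1.39 ± 0.11 in TVB-3166, -1.30 ± 0.16 in bleomycin, -0.79 ± 0.09 in palbociclib, -0.36 ± 0.10 in alisertib, and -0.58 ± 0.09 in doxorubicin cells. All 6 were called, with adjusted p-values of at most 0.0147, but the alisertib call was lost in 3 of the 6 fits that left out 1 library, with adjusted p-values of 0.0563 to 0.0625 without alisertib replicate 1, alisertib replicate 2, or day-0 replicate 2. The counts of LMNB2 per count of LMNB1 were 1.05 to 1.25 on day 0 and 1.17 to 1.26 in untreated day-7 libraries, and 2.62 to 3.76 in palbociclib, 2.15 to 2.89 in bleomycin, 1.42 to 2.54 in ND-646, 1.47 to 1.60 in doxorubicin, and 1.28 to 1.54 in alisertib libraries. All libraries of these 5 drugs lay above the untreated ones, while TVB-3166 libraries, at 1.04 to 1.74, overlapped them.

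LMNA encodes lamins A and C (gene ID 4000, GRCh37 chromosome 1, 156052364 to 156109872), and it moved least of the 10 genes on average. Day-0 libraries held 553, 484, and 417 CPM, ND-646 libraries 499, 334, and 364 CPM, TVB-3166 libraries 443, 376, and 397 CPM, and alisertib libraries 408, 405, and 405 CPM. Palbociclib cells were lowest, with 275, 273, and 253 CPM in the 3 libraries. The day-0 range overlapped that of ND-646 and TVB-3166 but lay above all palbociclib, doxorubicin, bleomycin, and alisertib libraries. LMNA fell in palbociclib (log2 fold-change -0.86 ± 0.11, adjusted p = 0.00014), doxorubicin (-0.65 ± 0.12, adjusted p = 0.0019), and bleomycin (-0.46 ± 0.14, adjusted p = 0.0187) cells. The bleomycin call was lost without bleomycin replicate 3 (adjusted p = 0.0869) or day-0 replicate 2 (adjusted p = 0.058). LMNA was not called in ND-646 (-0.29, 95% interval -0.73 to 0.14), TVB-3166 (-0.25, -0.52 to 0.01), or alisertib (-0.26, -0.50 to -0.02) cells. Without ND-646 replicate 1, the library that stood apart, LMNA was called lower in ND-646 cells (-0.48, adjusted p = 0.0145), and without day-0 replicate 3 it was called lower in TVB-3166 (-0.35, adjusted p = 0.0293) and alisertib (-0.35, adjusted p = 0.0207) cells.

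The lamin A/C to lamin B1 balance was read as the number of LMNA counts per LMNB1 count, a ratio that does not depend on library size. It was 4.36 to 6.92 in day-0 and 4.93 to 5.56 in untreated day-7 libraries, and 22.3 to 32.1 in ND-646, 15.5 to 33.7 in bleomycin, 13.8 to 15.7 in TVB-3166, and 11.6 to 18.2 in palbociclib libraries. All libraries of these 4 drugs lay above all untreated libraries. Alisertib libraries, at 7.07 to 8.08, also lay above the untreated range, whereas doxorubicin libraries, at 6.17 to 7.82, overlapped that of day 0.

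**Figure D1:**
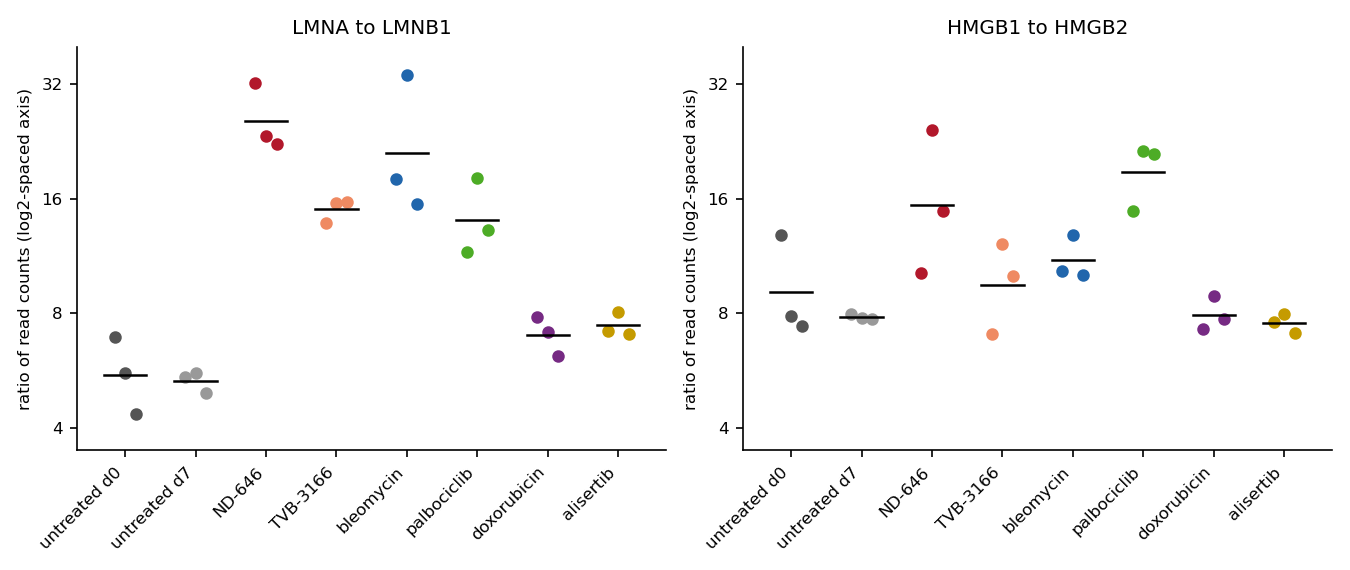
Ratios of read counts in every library, LMNA to LMNB1 on the left and HMGB1 to HMGB2 on the right. The vertical axis is log2-spaced, points are libraries, and bars are geometric means of 3 libraries. LMNA to LMNB1 was highest in ND-646 and bleomycin cells, and HMGB1 to HMGB2 was 14.8 to 21.4 in palbociclib cells against 7.43 to 12.8 on day 0.

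LBR encodes the lamin B receptor of the inner nuclear membrane, which also has sterol reductase activity (gene ID 3930, GRCh37 chromosome 1, 225589204 to 225616627, minus strand). Day-0 libraries held 111, 80.5, and 107 CPM, against 44.8, 32.8, and 40.6 CPM in palbociclib, 46.2, 44.6, and 46.4 CPM in TVB-3166, and 47.6, 37.8, and 48.4 CPM in bleomycin libraries. ND-646 libraries held 39.9, 49.98, and 57.7 CPM. These 4 drugs did not overlap day 0 and gave like falls, of -1.33 ± 0.15 in palbociclib, -1.15 ± 0.14 in bleomycin, -1.11 ± 0.12 in TVB-3166, and -1.02 ± 0.19 in ND-646 cells on the log2 scale, with adjusted p-values of at most 0.0035. In doxorubicin cells (76.2, 64.6, and 83.7 CPM) the fall of -0.39 ± 0.13 was called with an adjusted p of 0.0341, although 1 library lay within the day-0 range, and the call was lost in 4 of 6 fits that left out 1 library (doxorubicin replicate 1 or 2, day-0 replicate 1 or 3, adjusted p = 0.0737 to 0.117). Alisertib cells gave -0.32 ± 0.12 and were not called (adjusted p = 0.0616), except without day-0 replicate 2 (-0.44, adjusted p = 0.016).

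HMGB1 (gene ID 3146, GRCh37 chromosome 13, 31030841 to 31191734, minus strand) fell in all 6 drugs. Its level was 405, 322, and 360 CPM on day 0 and lay between 131 and 221 CPM in all 18 drug libraries, below every day-0 library and every untreated day-7 library (280, 297, and 329 CPM). The log2 fold-change ranged from -1.21 ± 0.14 in bleomycin to -0.73 ± 0.10 in alisertib cells, with ND-646 at -1.15, palbociclib at -0.99, and TVB-3166 and doxorubicin both at -0.91. All 6 were called, with adjusted p-values of at most 0.00059. In the fit over all 24 libraries, HMGB1 was higher in alisertib than in bleomycin (0.49, adjusted p = 0.00093) and ND-646 (0.41, adjusted p = 0.0033) cells and lower in bleomycin than in TVB-3166 cells (-0.30, adjusted p = 0.0332). The table also lists processed pseudogenes of HMGB1, with 464 to 1871 counts per library for HMGB1P5 and 622 to 2249 for HMGB1P6, so the reads that belong to HMGB1 are uncertain to that extent.

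HMGB2 (gene ID 3148, GRCh37 chromosome 4, 174252527 to 174255583, minus strand) fell most in palbociclib cells. Day-0 libraries held 31.6, 41.0, and 48.5 CPM, and palbociclib libraries 13.0, 8.001, and 8.88 CPM. ND-646 libraries held 15.4, 7.07, and 11.3 CPM, bleomycin libraries 17.1, 10.2, and 15.9 CPM, and TVB-3166 libraries 27.4, 16.9, and 17.8 CPM. All drug libraries lay below all untreated libraries of either day. The log2 fold-change from day 0 was -2.02 ± 0.21 in palbociclib, -1.86 ± 0.28 in ND-646, -1.48 ± 0.22 in bleomycin, -0.96 ± 0.20 in TVB-3166, -0.73 ± 0.15 in doxorubicin, and -0.47 ± 0.14 in alisertib cells. The last had an adjusted p of 0.0259 and was lost in 5 of 6 fits that left out 1 library (adjusted p = 0.0562 to 0.0916), all but the fit without day-0 replicate 1.

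HMGA1 (gene ID 3159, GRCh37 chromosome 6, 34204650 to 34214008) followed another order of drugs, with the lowest mean levels in FASTIS cells. Its level was 240, 279, and 237 CPM on day 0, 132, 119, and 121 CPM in TVB-3166, and 170, 135, and 137 CPM in ND-646 cells, but 202, 228, and 214 CPM in bleomycin cells. Doxorubicin (151, 187, and 151 CPM) and alisertib (176, 183, and 165 CPM) libraries overlapped those of ND-646. In edgeR's fit over all 24 libraries, ND-646 was not called against doxorubicin (adjusted p = 0.267) or alisertib (adjusted p = 0.0638). The log2 fold-change was -1.01 ± 0.10 in TVB-3166, -0.79 ± 0.15 in ND-646, -0.62 ± 0.11 in doxorubicin, -0.53 ± 0.09 in alisertib, and -0.36 ± 0.10 in palbociclib cells. All of these were called, the palbociclib one at an adjusted p of 0.0101, which became 0.0549 without day-0 replicate 2. Bleomycin gave -0.22 (95% interval -0.47 to 0.02, adjusted p = 0.121), although its 3 libraries all lay below the 3 day-0 libraries. Its pseudogenes HMGA1P3 and HMGA1P8 had at most 54 and 62 counts per library.

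EZH2 (gene ID 2146, GRCh37 chromosome 7, 148504349 to 148581413, minus strand) fell in all 6 drugs. Day-0 libraries held 42.6, 37.1, and 44.2 CPM, bleomycin libraries 11.4, 7.09, and 12.7 CPM, ND-646 libraries 11.4, 9.40, and 11.4 CPM, and TVB-3166 libraries 12.7, 13.5, and 13.4 CPM. All 18 drug libraries lay below day 0, the highest being an alisertib library at 28.7 CPM. Untreated day-7 libraries, at 33.7, 27.6, and 36.1 CPM, also lay below day 0, and doxorubicin and alisertib libraries overlapped them. The log2 fold-change was -1.99 ± 0.20 in bleomycin, -1.96 ± 0.16 in ND-646, -1.64 ± 0.11 in TVB-3166, -1.32 ± 0.15 in palbociclib, -0.82 ± 0.13 in doxorubicin, and -0.75 ± 0.13 in alisertib cells, with adjusted p-values of at most 0.0017.

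DNMT1 (gene ID 1786, GRCh37 chromosome 19, 10244018 to 10341962, minus strand) stood at 109, 105, and 101 CPM on day 0. It was lowest in ND-646 libraries, at 20.0, 30.8, and 32.4 CPM, followed by TVB-3166 (39.3, 33.8, and 45.4 CPM), bleomycin (50.2, 31.8, and 50.3 CPM), and palbociclib (52.7, 48.1, and 58.6 CPM) libraries. No drug library overlapped day 0, but neither did the untreated day-7 libraries (93.1, 81.0, and 94.7 CPM), which alisertib libraries overlapped. The log2 fold-change was -1.93 ± 0.20 in ND-646, -1.41 ± 0.11 in TVB-3166, -1.25 ± 0.16 in bleomycin, -0.98 ± 0.10 in palbociclib, -0.36 ± 0.09 in alisertib, and -0.46 ± 0.08 in doxorubicin cells, all called with adjusted p-values of at most 0.0097. The annotated span of DNMT1 overlaps that of S1PR2 on the same strand, and how the authors assigned such reads is not given in the sources used here.

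UHRF1 (gene ID 29128, GRCh37 chromosome 19, 4903092 to 4962165) varied most among the drugs. Day-0 libraries held 20.8, 35.8, and 39.4 CPM, of which replicate 1 was low, and untreated day-7 libraries held 29.1, 29.1, and 40.3 CPM. ND-646 libraries held 2.40, 7.28, and 5.90 CPM, TVB-3166 libraries 9.03, 7.97, and 9.18 CPM, bleomycin libraries 7.23, 5.14, and 13.0 CPM, and palbociclib libraries 15.9, 13.4, and 17.6 CPM. All 12 of these lay below all untreated libraries, whereas doxorubicin (23.3, 22.8, and 29.7 CPM) and alisertib (24.4, 24.7, and 32.4 CPM) overlapped both untreated groups. UHRF1 fell in ND-646 (log2 fold-change -2.62 ± 0.40, adjusted p = 0.0012), bleomycin (-1.91 ± 0.34, adjusted p = 0.0014), TVB-3166 (-1.87 ± 0.21, adjusted p = 2.8e-05), and palbociclib (-1.03 ± 0.21, adjusted p = 0.0021) cells. It was not called in doxorubicin (-0.33, 95% interval -0.80 to 0.14) or alisertib (-0.23, -0.70 to 0.23) cells, although both were called without day-0 replicate 1 (-0.57, adjusted p = 0.0045, and -0.46, adjusted p = 0.0114). The table also lists LOC728688, described as a pseudogene of UHRF1, with 12 to 266 counts per library.

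**Figure D2:**
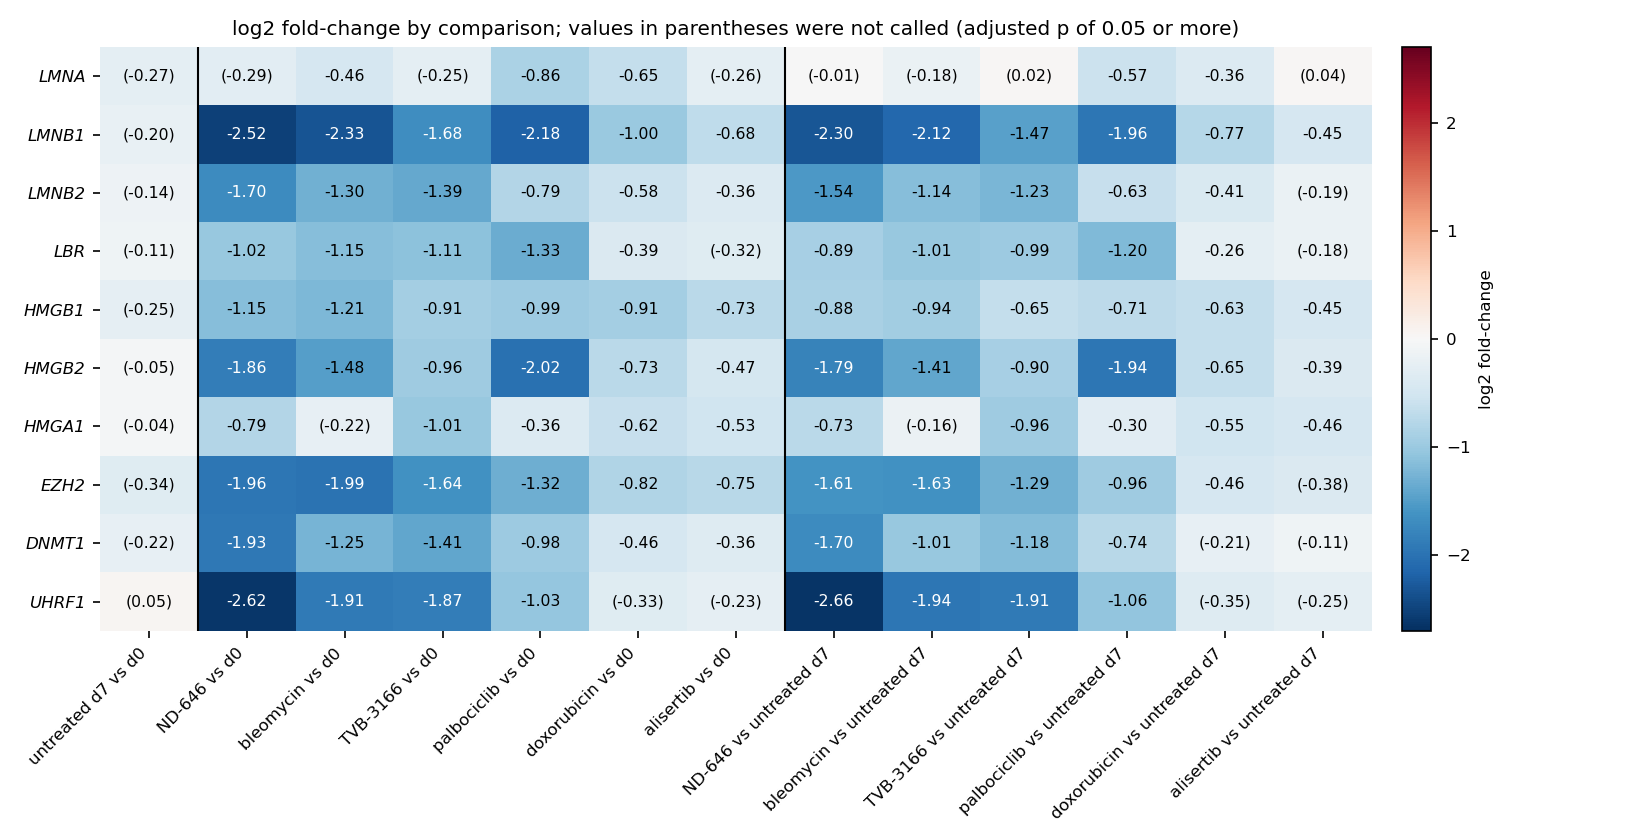
log2 fold-change of each gene (rows) in each comparison (columns), blue where lower and red where higher. Values in parentheses were not called at an adjusted p under 0.05 in edgeR's quasi-likelihood test. Every called value is negative, the darkest column of each reference is ND-646, and LMNA is called in 3 drugs against day 0 and in 2 against untreated day 7.

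Culture for 7 days without drug lowered the median of the 10 genes by less than any drug did. In untreated day-7 against day-0 cells, 0 members were called, and 0.198% of all genes tested were called lower and 0.389% higher. The median log2 fold-change of the members was -0.17 and their range was -0.34 (EZH2) to 0.05 (UHRF1). The largest falls, of LMNA, HMGB1, EZH2, and DNMT1 (-0.27, -0.25, -0.34, and -0.22), had adjusted p-values of 0.144 to 0.202, and DESeq2 called 0. Unadjusted p-values of edgeR's test were under 0.05 for these 4 members. All untreated day-7 libraries of EZH2 and DNMT1 lay below all day-0 libraries.

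Against untreated day-7 cells, a reference with the same time in culture, most falls were smaller, and all but 2 uncalled values of LMNA were negative. The labels name a refeed for the drug groups only, so drug and refeed cannot be told apart here. ND-646 and TVB-3166 each lowered 9 members, bleomycin and doxorubicin 8, palbociclib 10, and alisertib 4, with 0 higher in each. Of all genes tested, 17.1%, 26.1%, 23.2%, 21.5%, 22.9%, and 9.49% were called lower in ND-646, TVB-3166, bleomycin, doxorubicin, palbociclib, and alisertib cells, and 17.2%, 25.4%, 22.4%, 21.9%, 22%, and 9.55% higher. The members' median was -1.58, -1.08, -1.08, -0.43, -0.85, and -0.32 in the same order. LMNA was not called in ND-646 (-0.01, 95% interval -0.41 to 0.38), TVB-3166 (0.02, -0.18 to 0.23), alisertib (0.04, -0.14 to 0.21), or bleomycin (-0.18, -0.43 to 0.07) cells. HMGA1 was not called in bleomycin cells (-0.16, adjusted p = 0.164 in edgeR's test). Neither DNMT1 (-0.21, adjusted p = 0.0618) nor UHRF1 (-0.35, adjusted p = 0.0605) was called in doxorubicin cells. UHRF1 remained the most lowered member in ND-646 (-2.66 ± 0.37) and TVB-3166 (-1.91 ± 0.14) cells, and LMNB1 in bleomycin (-2.12 ± 0.23) and palbociclib (-1.96 ± 0.15) cells. In doxorubicin cells the calls of LBR (-0.26) and EZH2 (-0.46) were each lost without doxorubicin replicate 1, doxorubicin replicate 2, or day-7 replicate 3, and that of LBR also without day-7 replicate 1. Alisertib lowered LMNB1 (-0.45), HMGB1 (-0.45), HMGB2 (-0.39), and HMGA1 (-0.46), with adjusted p-values of at most 0.0175. Same-numbered libraries deviated together weakly in this comparison (correlations of 0.105 to 0.218). With the replicate number as a block, alisertib also lowered EZH2 (-0.39, adjusted p = 0.0086) and UHRF1 (-0.25, adjusted p = 0.0254), for 6 members in place of 4. With all 24 libraries in one fit, LMNB1 (-0.46, adjusted p = 0.125) and HMGB2 (-0.41, adjusted p = 0.304) lost their call.

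Both lipogenesis inhibitors were compared directly at their common dose. In TVB-3166 against ND-646 cells 0 members were called, while 0.198% of all genes tested were called lower and 0.52% higher. LMNB1 was at 0.83 (95% interval 0.48 to 1.18, adjusted p = 0.0572). HMGB2 was at 0.89 (0.19 to 1.60, adjusted p = 0.228) and DNMT1 at 0.52 (0.03 to 1.01, adjusted p = 0.303). DESeq2 called 1 member, LMNB1. The deviations of same-numbered libraries correlated here, at 0.380, 0.213, and 0.292, although the labels do not say that these libraries were paired. With the number as a block, LMNB1 (0.82, adjusted p = 0.0419) and HMGB2 (0.92, adjusted p = 0.0434) were called higher in TVB-3166 cells. The same 2 genes were called without ND-646 replicate 1 (0.83, adjusted p = 0.0059, and 1.18, adjusted p = 0.0144). UHRF1 was at 0.75 with an interval of -0.08 to 1.58, and LMNA at 0.03 with an interval of -0.36 to 0.43.

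The FASTIS groups differed on average from the other TIS groups. In a contrast of the mean of ND-646 and TVB-3166 with the mean of the other 4 drugs, fitted over all 24 libraries, 7 members were lower and 1 higher, against 24.7% of all genes lower and 26.3% higher. UHRF1 differed most (-1.36 ± 0.20), followed by DNMT1 (-0.90 ± 0.10), LMNB2 (-0.78 ± 0.10), EZH2 (-0.57 ± 0.12), LMNB1 (-0.55 ± 0.12), HMGA1 (-0.46 ± 0.07), and LBR (-0.26 ± 0.09). LMNA was higher (0.29 ± 0.08, adjusted p = 0.0043). HMGB1 (-0.06, 95% interval -0.19 to 0.07) and HMGB2 (-0.23, -0.54 to 0.08) were not called. Single drugs departed from these averages. Between bleomycin and TVB-3166 cells in this fit, UHRF1, LMNB2, DNMT1, and EZH2 were not called (adjusted p = 0.937, 0.743, 0.498, and 0.176). LMNB1 was lower in bleomycin than in TVB-3166 cells (-0.65, adjusted p = 0.0127), against the direction of the contrast, whereas HMGA1 was higher (0.79, adjusted p = 8.0e-06). Mean log2 CPM of LBR was lower in palbociclib (5.29) and bleomycin (5.47) than in TVB-3166 (5.517) and ND-646 (5.605) cells. In the same fit, LMNA in alisertib cells was not called against TVB-3166 (0.003, adjusted p = 0.992) or ND-646 (0.025, adjusted p = 0.900) cells. The proliferation markers moved with this contrast (10 of 10 lower, median -0.96), and their part in it was not tested. Without ND-646 replicate 1, LBR was no longer called (-0.20, adjusted p = 0.0562) and HMGB2 was (-0.37, adjusted p = 0.0424), so the number called stayed at 8.

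This contrast averages 4 drugs whose own effects differed widely, so 3 pairs of drugs, picked after the values were seen, were also read from the same fit. Bleomycin and ND-646 cells differed in 2 members, both higher in bleomycin: HMGA1 (0.55 ± 0.10, adjusted p = 0.00046) and DNMT1 (0.67 ± 0.16, adjusted p = 0.0037), with 16.3% of all genes lower and 15.2% higher. LMNB1 (0.17, 95% interval -0.23 to 0.57) and EZH2 (-0.04, -0.43 to 0.35) were not called between them. Palbociclib cells differed from TVB-3166 cells in 6 members, with 14.8% of all genes lower and 15.3% higher. HMGB2 (-1.05 ± 0.24) and LMNA (-0.60 ± 0.13) were lower in palbociclib cells, while UHRF1 (0.84 ± 0.31), HMGA1 (0.66 ± 0.10), LMNB2 (0.60 ± 0.16), and DNMT1 (0.43 ± 0.16) were higher. LMNB1 was at -0.49 with an adjusted p of 0.0524. Doxorubicin and bleomycin, which both damage DNA, differed in 8 members, 7 higher in doxorubicin cells and HMGA1 lower (-0.40 ± 0.10), against 7.98% and 7.85% of all genes. UHRF1 (1.58 ± 0.31), LMNB1 (1.33 ± 0.19), and EZH2 (1.16 ± 0.19) differed most between them.

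**Figure D3:**
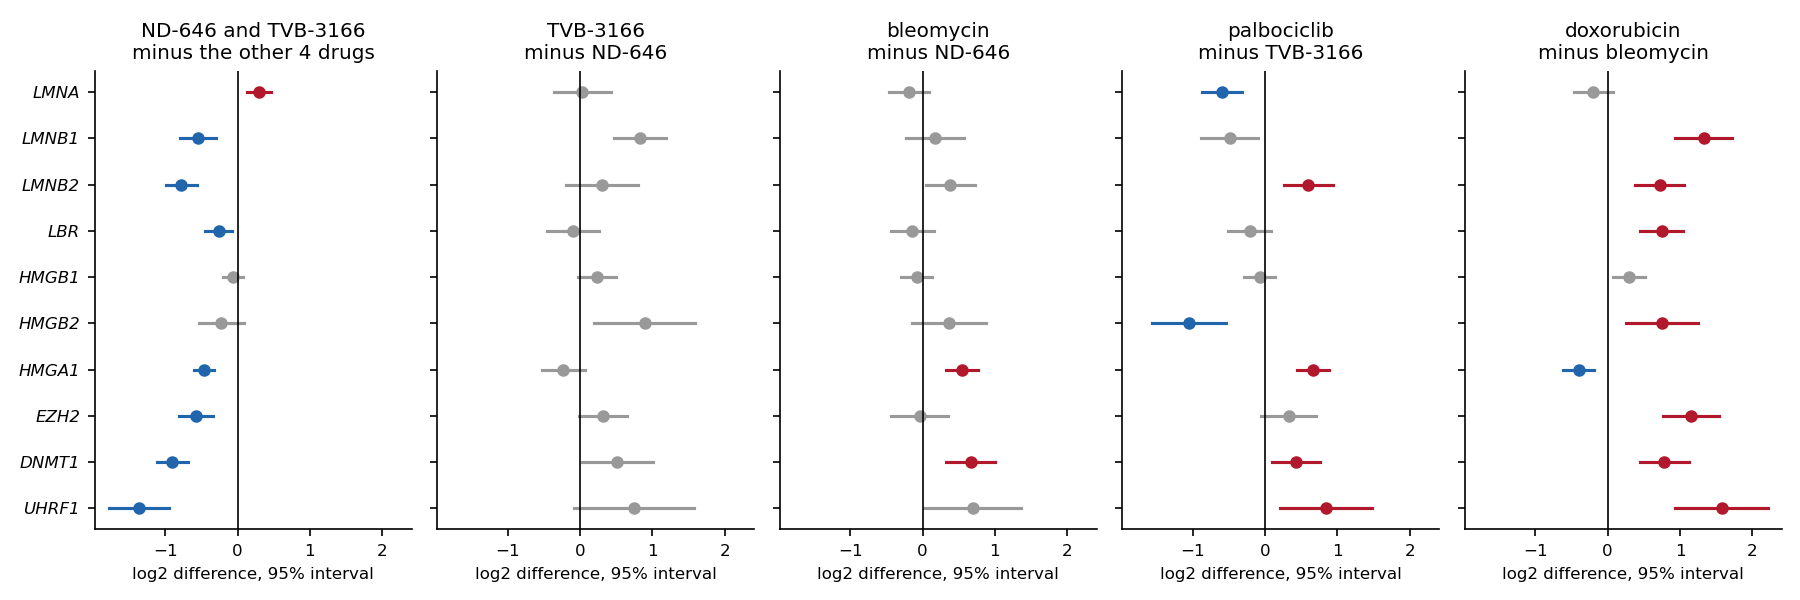
log2 difference of each gene between drug groups, with 95% intervals derived from edgeR's fit. Blue marks genes called lower, red those called higher, and grey those not called. In the first panel LMNA is called higher while 7 members are called lower, and HMGA1 is lower in doxorubicin than in bleomycin cells while 7 members are higher.

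Ranked by mean level, untreated day 0 was first for 9 of the members and untreated day 7 for UHRF1, and alisertib was the highest drug group for all but HMGA1, where bleomycin was. With all 24 libraries fitted together, 6 of the 70 neighbouring pairs of groups differed (4 to 11 when 1 library was left out). Over all genes tested, 3995 of 98546 such pairs differed (4.05%). The 6 pairs were neighbours in the order of these same means. These were doxorubicin above TVB-3166 for LMNB1 (adjusted p = 0.0073), palbociclib above bleomycin for LMNB2 (0.0194), doxorubicin above ND-646 for LBR (0.0018), untreated day 7 above alisertib for HMGB1 (0.0086), doxorubicin above palbociclib for DNMT1 (0.0336), and palbociclib above TVB-3166 for UHRF1 (0.0421). Over all 28 pairs of groups, the number that differed was lowest for LMNA (12) and highest for LMNB1 (21). For LMNB1, ND-646, bleomycin, and palbociclib were not told apart as neighbours at the low end (adjusted p = 0.535 and 0.561), nor were the untreated groups at the high end (adjusted p = 0.527).

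Per kilobase of the reference transcript, LMNA had the highest mean of the 10 genes in 5 of the 8 groups. HMGA1 had the highest in palbociclib cells (102 ± 7.57 against 84.1 ± 3.82 CPM per kb for LMNA) and, by less than the SD, in bleomycin (112 ± 6.78 against 110 ± 12.8) and untreated day-7 (126.3 ± 5.55 against 125.8 ± 10.6) cells. On day 0 LMNA stood at 153 ± 21.5 CPM per kb (SD, n = 3), HMGA1 at 131 ± 12.1, HMGB1 at 66.4 ± 7.55, LMNB1 at 30.3 ± 2.697, and UHRF1, the lowest, at 8.21 ± 2.53. In ND-646 cells LMNA was at 126 ± 27.7, HMGA1 at 76.8 ± 10.4, LMNB1 at 5.33 ± 0.35, and UHRF1 at 1.33 ± 0.65 CPM per kb. LMNB1 was above LMNB2 per kilobase on day 0 (21.9 ± 1.39 for LMNB2). In ND-646 cells its mean was below that of LMNB2 (6.77 ± 1.74) by less than the SD, and in ND-646 replicate 1 LMNB1 was above LMNB2. In palbociclib cells the levels were 6.68 ± 1.503 for LMNB1 and 12.6 ± 0.67 for LMNB2.

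The fall of the members went along with a fall of proliferation genes. All 10 of MKI67, TOP2A, CCNA2, CCNB1, CDK1, BUB1, PCNA, MCM2, MCM6, and TYMS were called lower than on day 0 in ND-646, TVB-3166, bleomycin, doxorubicin, and palbociclib cells, and 8 in alisertib cells. Against untreated day 7, 10 were lower in ND-646, TVB-3166, bleomycin, and palbociclib, 9 in doxorubicin, and 6 in alisertib cells. Their median log2 fold-change from day 0 was -2.60 in ND-646, -1.87 in bleomycin, -1.61 in palbociclib, -1.58 in TVB-3166, -0.89 in doxorubicin, and -0.51 in alisertib cells, against -1.78, -1.28, -1.01, -1.25, -0.64, and -0.42 for the members. Their summed level was 2169 to 2396 CPM on day 0, 324 to 435 in ND-646, 494 to 1050 in bleomycin, 586 to 821 in palbociclib, 707 to 917 in TVB-3166, 1295 to 1476 in doxorubicin, and 1391 to 1766 in alisertib libraries. TYMS, thymidylate synthase, fell most of the list on average (-2.34 over the 6 drugs) and TOP2A, topoisomerase II alpha, least (-1.08). The part of the proliferation genes in the members' fall was not tested.

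**Figure D4:**
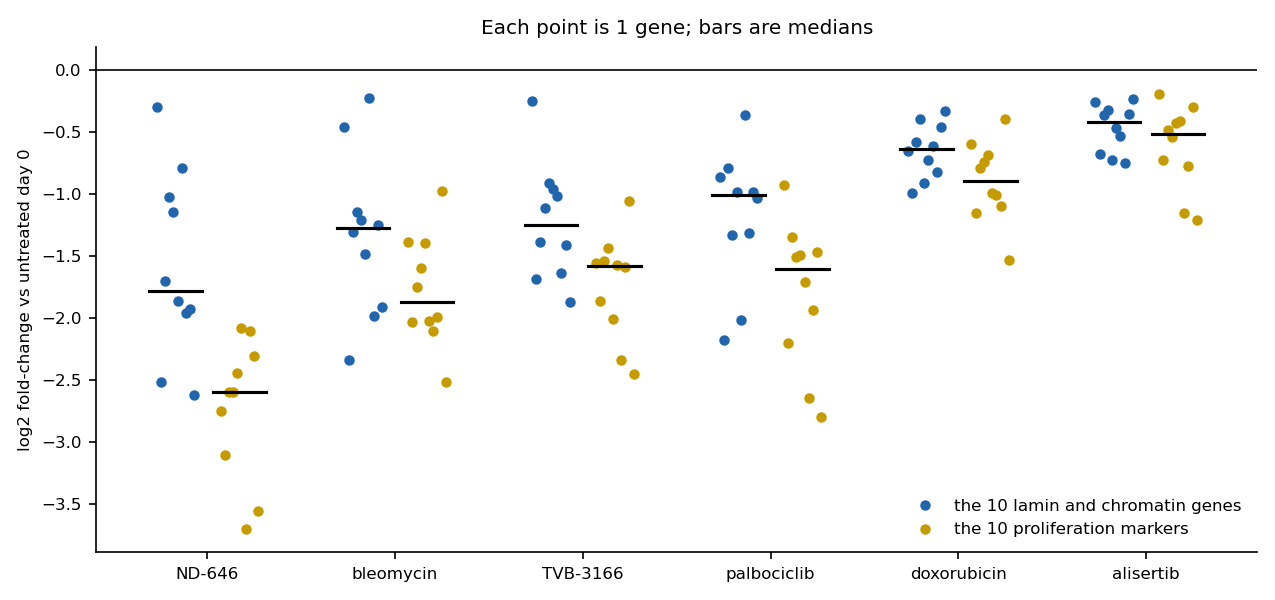
log2 fold-change from untreated day 0 of the 10 lamin and chromatin genes (blue) and of the 10 proliferation markers (yellow) in each drug. Each point is 1 gene and bars are medians. The medians were lowest in ND-646 cells (-1.78 and -2.60) and nearest 0 in alisertib cells (-0.42 and -0.51).

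Genes that work with the members were read against the share of all genes tested that was called, which was 18.8% to 27.7% lower and 17.7% to 27.4% higher over the 6 drugs against day 0. Of 16 partners of the lamina and nuclear envelope, 4 were lower and 4 higher than on day 0 in ND-646, 6 and 4 in TVB-3166, 7 and 5 in bleomycin, 6 and 3 in palbociclib, 6 and 2 in alisertib, and 5 and 2 in doxorubicin cells, with medians of -0.20 to 0.11. Against untreated day 7, 3 to 6 were lower and 1 to 5 higher. NRM (nurim), a protein of the inner nuclear membrane, was called lower in all 6 drugs, from -2.74 in palbociclib to -1.09 in alisertib cells. SYNE3, which links the nuclear envelope to the cytoskeleton and had a mean of only 0.267 CPM on day 0, was higher in bleomycin (3.49), ND-646 (2.90), TVB-3166 (2.07), and doxorubicin (1.58) cells, and was at 0.16 and 1.22 in palbociclib and alisertib cells without a call. Against untreated day 7, SYNE3 was called higher in bleomycin (2.08) and ND-646 (1.48) cells and not in the other 4 drugs. Among 5 genes of prelamin processing, 2 or 3 were lower than on day 0 in each drug and 1 was higher in bleomycin cells. Against untreated day 7, 3 were lower in palbociclib, 2 in TVB-3166, 1 in ND-646 and in bleomycin, and 0 in doxorubicin and alisertib cells, and 1 was higher in bleomycin and in doxorubicin cells. FNTB, the farnesyltransferase beta subunit, was lower than on day 0 in all 6 drugs (-1.08 to -0.64) and in untreated day-7 cells (-0.55).

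Of 10 other PRC2 genes, 2 to 4 were lower and 2 to 4 higher than on day 0 in each drug, shares near those over all genes, and 1 to 5 were lower and 1 to 3 higher than on untreated day 7. PHF1, an accessory subunit that binds methylated histone H3, was higher in all 6 (0.38 to 1.45), and PHF19, its paralog, was lower in all but alisertib cells (-1.80 in palbociclib to -0.58 in TVB-3166 cells). Of 13 PRC1 genes, 0 to 2 were lower than on day 0 in each drug and 0 to 5 lower than on untreated day 7. Of 14 other genes of DNA methylation and demethylation, between 1 (doxorubicin) and 7 (TVB-3166) were lower and 0 to 2 higher than on day 0, and 1 to 5 were lower and 0 to 2 higher than on untreated day 7. DNMT3B, a de novo DNA methyltransferase, was lower in ND-646 (-1.24), bleomycin (-0.88), palbociclib (-0.80), and TVB-3166 (-0.75) cells and not called in doxorubicin (-0.38) or alisertib (-0.31) cells.

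Genes of heterochromatin and histone deposition depended on the reference. Of 12 genes of heterochromatin and H3K9 methylation, 6 to 8 were lower and 0 to 3 higher than on day 0 in each drug. Against untreated day 7, 8 were lower in TVB-3166, 5 in ND-646, bleomycin, and palbociclib, 4 in doxorubicin, and 1 in alisertib cells, where 9.49% of all genes were. SUV39H1, an H3K9 methyltransferase, was lower than on day 0 in all 6, from -2.26 in ND-646 to -0.34 in alisertib cells. Of 10 histone chaperones, 4 to 9 were lower and 0 higher than on day 0, and 2 to 9 were lower and 0 to 1 higher than on untreated day 7. ASF1B, which hands histones to the replication fork, ranged from -2.79 in ND-646 to -0.48 in alisertib cells against day 0, all called. Of 8 other high-mobility-group genes, 4 to 6 were lower and 0 to 2 higher than on day 0, and 2 to 6 were lower and 0 higher than on untreated day 7. HMGN2, a nucleosome-binding protein, was lower than on day 0 in all 6 (-1.604 in palbociclib to -0.82 in TVB-3166 cells). In the contrast of FASTIS with the other 4 drugs, 9 of the 12 heterochromatin genes were lower and 2 higher, 7 of the 10 histone chaperones were lower and 0 higher, and 4 of the 16 lamina and envelope partners were lower and 8 higher, against 24.7% of all genes lower and 26.3% higher.

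Members also resembled each other and genes outside the list to differing degrees. Likeness was taken as the root mean square difference of log2 CPM over the 24 libraries after each gene was centred, so that smaller is more alike, and it is a description of libraries that share their groups. The closest members were LMNB2 and DNMT1 (0.14), followed by LMNB2 and EZH2 (0.29). Of 13277 genes compared, those nearest to LMNB1 were WDR76, PCLAF, and MCM6 (0.19 to 0.22), those nearest to DNMT1 were FIGNL1, POLA2, and INCENP (0.13 to 0.17), and those nearest to UHRF1 were LOC728688, its own pseudogene, RAD54L, and CDC6 (0.18 to 0.30). LMNB2 was nearest to CDK2, AMD1, and SUV39H2, EZH2 to CHRNA5, SRSF1, and DNAJC9, HMGB2 to GPSM2, PCNA, and GMNN, and LBR to EXOSC9, DEK, and RBL1 (0.17 to 0.28 over all of these). LMNA was nearest to HK1, EFHD1, and SDHA (0.12 for each, against an SD of 0.29 for LMNA itself), and HMGA1 to EFHD2, SHKBP1, and STK32C (0.16). HMGB1 was nearest to its pseudogenes HMGB1P5 and HMGB1P6 and to IDH3A (0.11 to 0.12).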

How the data were processed

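mRNA levels were measured by paired-end RNA-seq in 24 libraries of SKBR3 cells. The kit was a stranded one for total RNA by the methods and for mRNA by the labels. The authors used HISAT2 for alignment to GRCh37, StringTie for transcripts, and DESeq2 for their comparisons (these tools are also in the submitters' processing notes). The values deposited are raw counts of reads for each gene, without normalization. The counting settings and the use of strand are not given in the sources used here. The table lists 14493 genes with a lowest count of 1, so genes without reads in a library are not among those tested. Counting error is small at totals of 29405121 to 44316330, and the spread between the 3 libraries of a group sets the precision.

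Groups and replicate numbers were taken from the labels. Counts were tested in R 4.3.3 with edgeR 4.0.16 (filterByExpr, TMM, glmQLFit and glmQLFTest, 2-sided) with the 6 libraries of both groups in a fit, or with all 24 libraries for the contrast of FASTIS with the other 4 drugs and for the 28 pairs of groups. Genes were called at a Benjamini-Hochberg adjusted p-value under 0.05, adjusted over all genes tested. The SE was derived as the absolute log2 fold-change divided by the square root of the quasi-likelihood F statistic. The 95% intervals were derived from that SE with the t distribution. Levels are CPM, and a prior count of 2 was added for log2 CPM. Lengths and GRCh37 positions are from GENCODE v44 lifted to GRCh37, on the MANE transcript, and promoter windows are from RefSeq. The replicate number was taken to pair libraries where the deviations of all 3 same-numbered pairs correlated over 0.1 across genes, which held in TVB-3166 against ND-646 (0.213 to 0.380), bleomycin against untreated day 7 (0.107 to 0.142), and alisertib against untreated day 7 (0.105 to 0.218), and its value as a block is given there where it changed a call.

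The members and the lists of related genes were chosen with earlier results of these data known. All members are named, with the gene of each list that had the highest and the lowest mean log2 fold-change over the 6 drugs and the 3 genes nearest to each member. Of these, 1 gene is not reported here. The lists hold partners of the lamina and envelope, prelamin processing genes, PRC2, PRC1, DNA methylation genes, other high-mobility-group genes, heterochromatin genes, histone chaperones, proliferation markers, SKBR3 markers, and markers of other cell types, and they were described by counts and medians. The alternatives were DESeq2 1.42.0, RLE in place of TMM, omitting the filter or asking for 10 counts in each library, a fold-change of at least 2 with a raw p-value under 0.05, the replicate block, other libraries in the fit, and leaving out each library. Counts were simulated for ND-646 against day 0 over 13493 genes, with 99 genes changed by 1 and 97 by 2 on the log2 scale. EdgeR recovered 54.5% of the former and 96.9% of the latter, with 0 in the wrong direction and 11 false calls. Far fewer genes changed there than were called in the data (18.8% lower and 19.1% higher), and no library was made to stand apart. These rates therefore need not hold in the data.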

Additional observations from a re-analysis of the deposited data

How the results depend on the processing

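In 2130 recomputed log2 fold-changes of the members, 0 reversed a call, and 2010 kept both their direction and their side of the threshold. The rule of at least 2-fold with a raw p-value under 0.05 gave 58 of the changed calls, and without it 1918 of 1980 were unchanged. Under that rule the number of members called became 0 in doxorubicin and alisertib cells against either untreated group, 5 and 4 in palbociclib cells against day 0 and untreated day 7, 5 in TVB-3166 cells against untreated day 7, and 1 for FASTIS against the other 4 drugs. With all 24 libraries in one fit, alisertib lowered 4 members against day 0 and 2 against untreated day 7, and 2 differed between TVB-3166 and ND-646, where DESeq2 called 1. With the replicate block 2 differed there, and 11 neighbouring pairs of groups differed, as did 11 when only both groups were fitted. The block changed no call in bleomycin against untreated day 7. In the other comparisons, where the correlations of same-numbered libraries were not all over 0.1, it added LBR in alisertib against day 0 and DNMT1 and UHRF1 in doxorubicin against untreated day 7. DESeq2 added LBR in alisertib against day 0, UHRF1 in doxorubicin and EZH2 in alisertib against untreated day 7. Leaving out each library gave, against day 0, 9 to 10 members in ND-646, TVB-3166, and palbociclib, 8 to 9 in bleomycin and doxorubicin, and 5 to 8 in alisertib cells, and, against untreated day 7, 9 in ND-646 and TVB-3166, 8 in bleomycin, 6 to 10 in doxorubicin, 9 to 10 in palbociclib, and 3 to 6 in alisertib cells. It gave 0 between the untreated groups, 0 to 2 between TVB-3166 and ND-646 (2 without ND-646 replicate 1), 8 for FASTIS against the other drugs, and 4 to 11 for the neighbouring pairs (11 without bleomycin replicate 2). Against untreated day 7, LBR and EZH2 in doxorubicin cells lost their call in 4 and 3 of 6 such fits (adjusted p = 0.0908 to 0.141 and 0.0538 to 0.0688), HMGB2 in alisertib cells in 2 (without alisertib replicate 2 or day-7 replicate 3, adjusted p = 0.0702 and 0.0859), and HMGA1 in palbociclib cells in 1 (without day-7 replicate 3, adjusted p = 0.0536). The cause of these changes was not tested. The counts of HMGB1, HMGA1, and UHRF1 may share reads with their pseudogenes.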

Other observations

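The lists used to check the cells changed in part. Of the 6 SKBR3 markers, 2 were lower than on day 0 in ND-646 and 3 in each of the other drugs, and 1 was higher, in TVB-3166 cells. KRT19, a keratin of simple epithelia, had the lowest mean over the 6 drugs (-1.01, from -1.49 to -0.76), and GRB7, which is amplified together with ERBB2, had the highest (0.24, from -0.02 to 0.62). Of the 3 measured markers of other cell types, 1 was higher in each drug except alisertib and 1 was lower in each except alisertib. CD68 was at 5.39 ± 1.04 CPM (SD, n = 3) on day 0, 46.9 ± 7.03 in ND-646, 42.1 ± 12.4 in bleomycin, 28.5 ± 2.54 in TVB-3166, and 5.20 ± 0.50 in alisertib cells, and COL1A1 was at 12.3 ± 0.70 CPM on day 0 and between 7.62 and 11.6 CPM as a mean in the drug groups. Of the 13 PRC1 genes, 1 to 5 were called higher than on day 0 in each drug, and CBX2 had the lowest mean over the 6 drugs (-0.29).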
